A study of Mus musculus with 8 samples.

Results

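The genes of a synaptic adhesion system were followed through the cell types of the mouse hippocampus: the neurexins Nrxn2 and Nrxn3, the neuroligins Nlgn1, Nlgn2 and Nlgn3, and the leucine-rich repeat transmembrane genes Lrrtm1, Lrrtm2, Lrrtm3 and Lrrtm4. They were taken by symbol, 9 of the 30211 genes counted, and each symbol matched 1 row whose identifier was the same in the GENCODE annotation. RNA of single nuclei from dissected hippocampus was measured in 8 libraries, 1 mouse each, to see what loss of Gsap, the gene of the γ-secretase activating protein, changes with and without the amyloid transgene. The groups were 3 WT mice and 3 GKO mice aged 7 months, and 1 J20;WT mouse and 1 J20;GKO mouse aged 6 months, on a C57BL/6 background by the labels (C57BL/6N in the study's methods). GKO mice carry a constitutive deletion of internal Gsap exons, made by crossing a floxed line with CMV-Cre mice, so the deletion is in every tissue. J20 mice express mutant human APP from a PDGFB promoter, which is active mainly in neurons. With 1 mouse per genotype the J20 pair has no replicate.

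Neurexins sit in the presynaptic membrane and reach across the cleft to a large set of postsynaptic ligands, among them the neuroligins and the Lrrtm proteins. Nlgn1 is known from excitatory synapses, Nlgn2 from inhibitory synapses and Nlgn3 from both, while the Lrrtm proteins organize excitatory synapses and bind neurexins and, for Lrrtm3 and Lrrtm4, heparan sulfate proteoglycans. Oligodendrocyte precursor cells (OPCs) receive synapses from neurons, and astrocytes use neuroligins in contacts with neurons.

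The nuclei fell into types named from marker genes, and a name ending in -like is used for each. In all, 32041 nuclei passed the filters: 13402 excitatory neuron-like, 1654 inhibitory neuron-like, 2767 astrocyte-like, 1961 microglia-like, 7077 oligodendrocyte-like, 1127 OPC-like and 216 Cajal-Retzius-like nuclei, with 3504 left unnamed. The excitatory nuclei held 5547 dentate granule-like, 2511 CA1-like, 1301 CA3-like and 1129 subiculum or cortex-like nuclei, and 2914 that kept no name. Of the fixed markers, 10 of 12 were raised in the granule-like, 10 of 10 in the CA1-like and 10 of 10 in the CA3-like cluster, and 6 and 9 of 14 in the 2 clusters of subiculum or cortex-like nuclei. The inhibitory nuclei held 580 Sst, 274 Lamp5, 213 Vip, 212 Pvalb and 191 Cnr1 interneuron-like nuclei. All 9 genes, and the genes of the pathway lists used further on, were left out of the clustering. Libraries held 21020159 to 43310978 unique molecular identifiers (UMIs), with medians of 4579 to 6439 per nucleus. Gsap itself was at 22.3 to 23.0 counts per 1000000 (CPM) in the 3 WT libraries, 19.8 to 22.0 in those labelled GKO, 19.9 for the J20;WT mouse and 21.1 for the J20;GKO mouse. The GKO levels lay below the WT levels with no overlap, while the J20 pair had the opposite order. These are counts of the whole gene and where in it the reads fell was not examined, so the deletion itself was not checked.

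Lengths and neighbours of the genes differ widely, which bears on how their UMIs can be read. On build GRCm38 (mm10), Nrxn3 spans 1612 kb on chromosome 12 (88722876 to 90334935, plus strand), of which 0.782% is exon, and Nlgn1 spans 906 kb on chromosome 3 (25426215 to 26332460, minus strand). Lrrtm4 spans 791 kb on chromosome 6 (80018877 to 80810143, plus strand) and Lrrtm3 162 kb on chromosome 10 (63928472 to 64090277, minus strand). Nrxn2 lies on chromosome 19 (6418731 to 6544169, plus strand), Nlgn2 on chromosome 11 (69823122 to 69837784, minus strand), Nlgn3 on chromosome X (101299168 to 101325963, plus strand) and Lrrtm1 on chromosome 6 (77242689 to 77257791, plus strand). Lrrtm1, Lrrtm2 and Lrrtm3 each lie inside an α-catenin gene (Ctnna2, Ctnna1 and Ctnna3) on the opposite strand. Whether reads from introns and from which strand were counted is not given in the sources used here, and levels are therefore compared between cell types for 1 gene at a time, never between genes.

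Promoters of 2 members are shown because Lrrtm4 and Lrrtm3 are the Lrrtm genes that were higher in dentate granule-like than in both CA1-like and CA3-like nuclei. Each run holds 250 bases before to 50 bases after a transcript start in RefSeq on GRCm38.p6, written 5′ to 3′ on the gene's strand, with every CANNTG, the E-box letters of basic helix-loop-helix factors, in capitals.
Lrrtm4 upstream start, chr6:80018627-80018926, plus strand: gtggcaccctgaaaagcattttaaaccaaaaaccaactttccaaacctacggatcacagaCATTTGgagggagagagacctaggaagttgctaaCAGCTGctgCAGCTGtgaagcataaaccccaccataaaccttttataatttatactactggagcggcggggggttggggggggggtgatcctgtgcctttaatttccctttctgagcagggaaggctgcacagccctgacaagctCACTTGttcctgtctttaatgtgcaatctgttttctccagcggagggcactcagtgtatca
Lrrtm4 downstream start, chr6:80019393-80019692, plus strand: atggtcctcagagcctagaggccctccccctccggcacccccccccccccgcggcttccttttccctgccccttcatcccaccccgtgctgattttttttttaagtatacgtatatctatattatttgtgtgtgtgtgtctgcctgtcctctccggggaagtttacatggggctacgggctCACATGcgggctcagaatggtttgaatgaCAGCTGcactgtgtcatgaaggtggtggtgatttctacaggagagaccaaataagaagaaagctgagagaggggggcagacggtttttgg
Lrrtm3, chr10:64090206-64090505, minus strand: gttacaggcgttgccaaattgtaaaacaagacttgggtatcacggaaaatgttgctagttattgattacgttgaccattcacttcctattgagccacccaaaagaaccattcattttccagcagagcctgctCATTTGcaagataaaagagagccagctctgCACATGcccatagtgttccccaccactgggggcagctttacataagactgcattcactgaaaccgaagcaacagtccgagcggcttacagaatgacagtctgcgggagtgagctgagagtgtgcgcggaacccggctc
The upstream Lrrtm4 window held 4 CANNTG, the downstream window 2 and the Lrrtm3 window 2, and 2, 1 and 0 of these were CAGCTG. The motif reads the same on both strands, and CAGCTG is 1 form of it. Of 32851 RefSeq promoters of this length, 72.3% held CANNTG and 16.3% CAGCTG. Of the 9 genes, 6 had a promoter in that table. These matches describe letters in the windows and no binding was measured.

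Levels are given as CPM, the UMIs of a gene summed over the nuclei of a type in 1 mouse and scaled to all UMIs of that type and mouse, as mean ± SD over 8 mice.

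**Figure D1:**
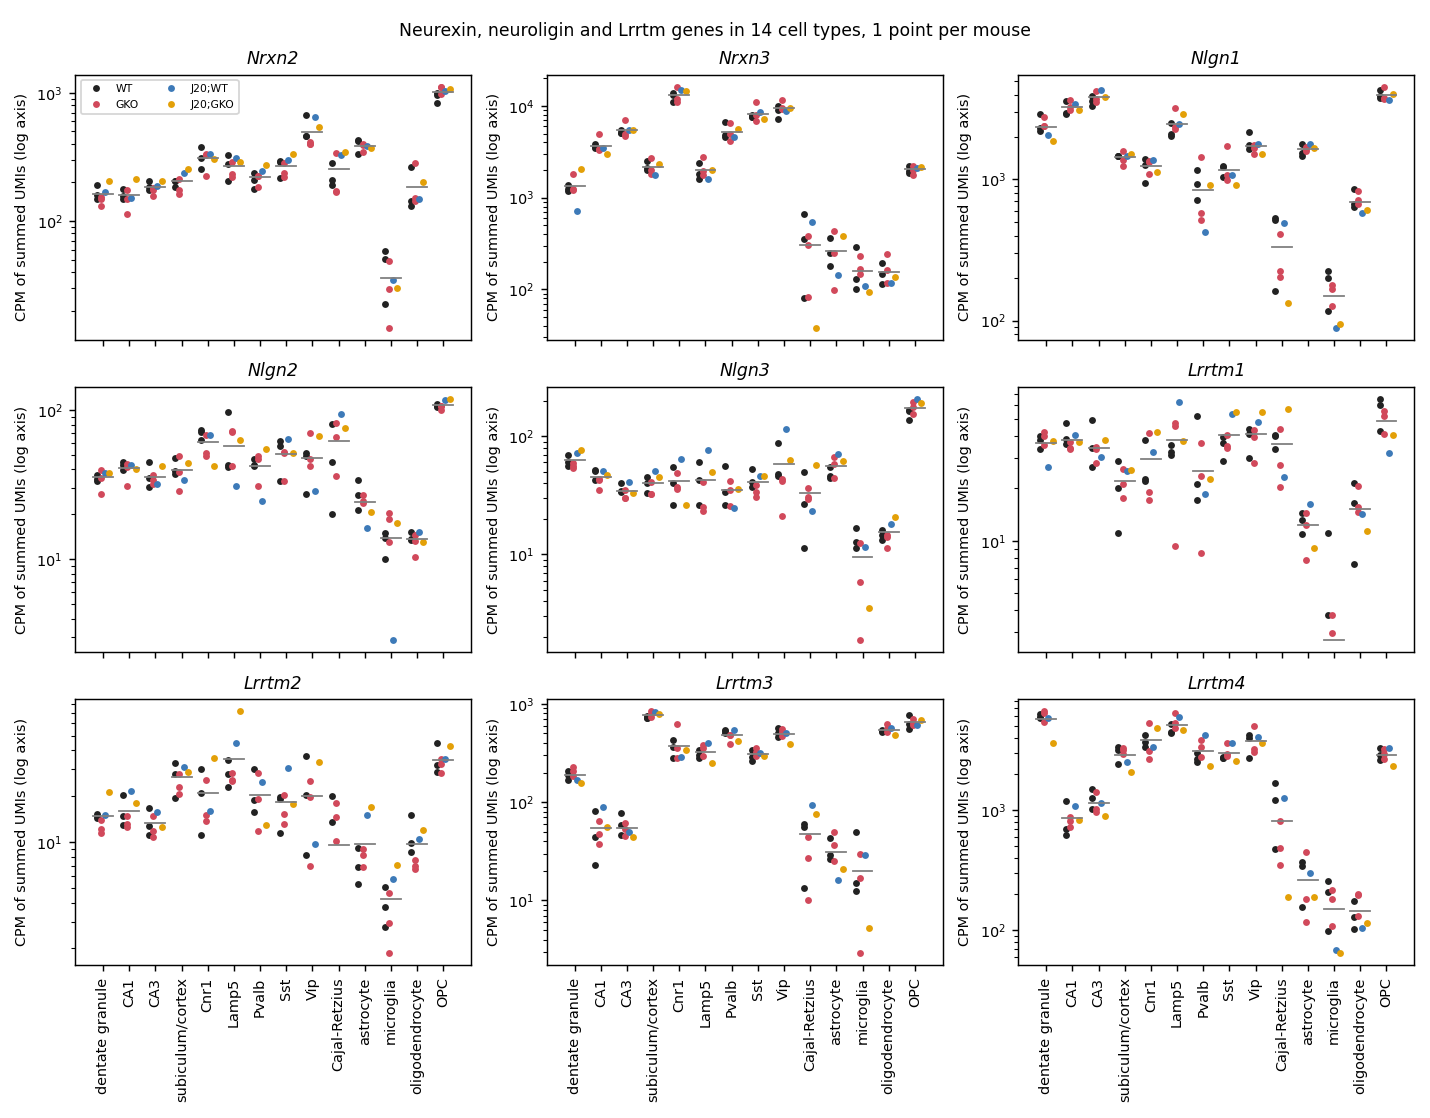
CPM of the 9 genes (log axis) in 14 cell types (horizontal axis), 1 point per mouse coloured by group, with a grey line at the mean of 8 mice; 7 of the 1008 values were 0 and have no point. By mean, Lrrtm4 was highest in dentate granule-like nuclei at 5732 CPM and Nrxn3 in Cnr1 interneuron-like nuclei at 13271 CPM. Nrxn2, Nlgn1, Nlgn2 and Nlgn3 were highest by mean in OPC-like nuclei, where the Nlgn1 values overlapped those of CA3-like nuclei.

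Among the neurexins, and as whole classes, Nrxn3 was highest in inhibitory neuron-like nuclei and Nrxn2 in OPC-like nuclei. Single subtypes departed from the Nrxn3 order, with 1987 ± 404 CPM in Lamp5 interneuron-like and 5402 ± 724 in CA3-like nuclei. Nrxn3 read 6100, 7009 and 9250 CPM as the lowest, median and highest of 8 mice in inhibitory neuron-like nuclei (7198 ± 942) against 2656, 2932 and 3837 CPM in excitatory neuron-like nuclei (3032 ± 363). No inhibitory value overlapped an excitatory one, and the difference was 1.17 ± 0.14 (SE) on the log2 scale with an edgeR adjusted p of 2.95e-10. OPC-like nuclei followed at 2043 ± 177 CPM. Astrocyte-like, microglia-like and oligodendrocyte-like nuclei had 263, 159 and 154 CPM of Nrxn3, and the last 2 were not told apart (adjusted p = 0.186 in edgeR). Nrxn2 read 831, 1016 and 1120 CPM in OPC-like nuclei (1012 ± 92.0), apart from every other type, and 383 ± 33.3 CPM in astrocyte-like nuclei. In inhibitory neuron-like nuclei it was at 283 ± 36.1 CPM, while oligodendrocyte-like (183 ± 60.5) and excitatory neuron-like nuclei (180 ± 22.9) were neighbours that were not told apart (adjusted p = 0.731 in edgeR). Microglia-like nuclei had 36.0 ± 15.0 CPM of Nrxn2.

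Among the whole classes, the neuroligins shared a high point in OPC-like nuclei. Nlgn1 read 3672, 3845 and 4551 CPM there (3963 ± 316), then 2873 ± 238 in excitatory neuron-like, 1649 ± 110 in astrocyte-like and 1564 ± 251 in inhibitory neuron-like nuclei. Astrocyte-like and inhibitory neuron-like nuclei were not told apart in Nlgn1 (adjusted p = 0.223 in edgeR), and oligodendrocyte-like nuclei came next at 698 ± 99.4 CPM. Within the excitatory nuclei, CA3-like ones read 3331 to 4332 CPM of Nlgn1 (3811 ± 342), which overlapped the OPC-like range. CA3-like and OPC-like nuclei were not tested against each other. Nlgn3 read 138, 172 and 206 CPM in OPC-like nuclei (174 ± 22.9), with no overlap with the 55.7 ± 10.1 CPM of astrocyte-like, the 47.9 ± 6.07 of excitatory neuron-like or the 41.8 ± 8.08 of inhibitory neuron-like nuclei. Astrocyte-like and excitatory neuron-like nuclei were not told apart in Nlgn3 (adjusted p = 0.0649 in edgeR) and excitatory and inhibitory neuron-like nuclei differed by less than the fold threshold, while astrocyte-like nuclei were above inhibitory ones by 0.47 on the log2 scale, where 64.8% of all genes were called. Nlgn2, the neuroligin of inhibitory synapses, was also highest in OPC-like nuclei at 100, 107 and 119 CPM (109 ± 6.10), followed by 52.0 ± 6.95 in inhibitory and 39.6 ± 4.04 in excitatory neuron-like nuclei.

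Of the Lrrtm genes, Lrrtm4 was spread over inhibitory neurons, excitatory neurons and OPCs, and Lrrtm3 was the 1 member not called between OPCs and oligodendrocytes. Lrrtm4 was at 3600 ± 479 CPM in inhibitory neuron-like, 3040 ± 452 in excitatory neuron-like and 2887 ± 346 in OPC-like nuclei, neighbours with adjusted p of 0.333 and 0.277 in edgeR. The ends of that order, OPC-like below inhibitory neuron-like nuclei, differed by −0.37 ± 0.15 on the log2 scale (adjusted p = 0.0350 in edgeR), where 54.1% of all genes were called. Lrrtm3 read 556, 629 and 775 CPM in OPC-like nuclei (648 ± 68.7) and 487, 537 and 627 CPM in oligodendrocyte-like nuclei (544 ± 41.0). These ranges overlapped, with a log2 difference of 0.11 ± 0.11 (adjusted p = 0.386 in edgeR). As whole classes, neurons had less Lrrtm3, at 353 ± 29.1 CPM in inhibitory and 221 ± 25.7 in excitatory neuron-like nuclei, and astrocyte-like and microglia-like nuclei had 31.0 and 20.1 CPM. Single neuron subtypes departed from that, with 771 ± 43.6 CPM in subiculum or cortex-like nuclei. Lrrtm1 was at 48.6 ± 11.3 CPM in OPC-like, 35.2 ± 7.43 in inhibitory and 34.7 ± 1.73 in excitatory neuron-like nuclei, and its 2 neuron classes were not told apart (adjusted p = 0.632 in edgeR). Lrrtm2 was at 34.8 ± 5.95, 21.5 ± 4.01 and 16.3 ± 2.43 CPM in the same 3 types.

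Glial levels have to be read beside the RNA that floats free in droplet data. A set of 10 neuronal genes, among them Snap25 and Rbfox3, stood in microglia-like nuclei at a median of 8.83% of their excitatory neuron-like level, in oligodendrocyte-like nuclei at 7.44%, in astrocyte-like nuclei at 9.76% and in OPC-like nuclei at 15.2%. Nrxn3, Lrrtm4 and Nlgn1 in microglia-like nuclei were at 5.23%, 4.85% and 5.16%, so their microglial levels were no higher than that background. Nrxn3 and Lrrtm4 in oligodendrocyte-like nuclei, at 5.05% and 4.77%, were likewise below it. Lrrtm3 in the same oligodendrocyte-like nuclei was at 249% and Nrxn2 at 105% of the excitatory level. In astrocyte-like nuclei Nrxn3 and Lrrtm4, each at 8.50%, were below the 9.76% of the neuronal genes.

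The share of nuclei with at least 1 UMI was compared after every nucleus was thinned to 1000 UMIs, with shallower nuclei left out (3 OPC-like to 122 oligodendrocyte-like nuclei in the types named here). Lrrtm4 was seen in 98.1% ± 1.75 of dentate granule-like and 27.6% ± 6.03 of CA1-like nuclei, against 11.1% ± 4.06 of microglia-like nuclei, and without thinning in 100%, 62.4% and 20.8%. Nlgn1 was seen in 97.1% ± 0.79 of OPC-like, 75.9% ± 2.03 of astrocyte-like and 12.1% ± 2.96 of microglia-like nuclei, and without thinning in 99.9%, 96.2% and 22.5%. Lrrtm3 was seen in 36.3% ± 2.07 of oligodendrocyte-like nuclei and in 1.43% ± 0.92 of microglia-like nuclei, and without thinning in 55.0% and 2.91%. Before thinning, median depths per mouse were 1856 to 2585 UMIs in oligodendrocyte-like, 1671 to 2331 in microglia-like, 3214 to 4746 in astrocyte-like, 3702 to 5521 in OPC-like, 5846 to 10084 in dentate granule-like and 10993 to 17068 in CA1-like nuclei.

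The comparison of classes was tested over 8 mice with the mouse as a block, and a gene was called when its adjusted p was below 0.05 and its log2 change above 0.3. Between inhibitory and excitatory neuron-like nuclei, 5 members were higher in inhibitory nuclei, 1 was lower and 3 were not called, where 45% of all 14026 genes tested were called (23.4% higher and 21.6% lower). Nrxn3, Lrrtm3 (0.61 ± 0.10), Nrxn2 (0.57 ± 0.12), Lrrtm2 (0.32 ± 0.09) and Nlgn2 (0.31 ± 0.07) were higher on the log2 scale, and Nlgn1 was lower by −0.96 ± 0.10. Lrrtm2 and Nlgn2 had ranges that overlapped between the classes, and 8 of 8 mice had more of each in inhibitory nuclei. Nlgn2 was below the fold threshold without WT mouse 2 or GKO mouse 2 (both 0.30 on the log2 scale) and Lrrtm2 without GKO mouse 3 (0.29). Nlgn2 was also below it in DESeq2 (0.29) and with no filter on low counts (0.26), and Lrrtm2 without called doublets (0.29), without the top doublet scores (0.28) and with no filter (0.27). With only the 3 WT mice Nlgn2, Lrrtm2 and Nrxn2 were not called. Lrrtm4, at a log2 difference of 0.18 ± 0.15, was not called.

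Against excitatory neuron-like nuclei, OPC-like nuclei had 7 members higher, 1 lower and 1 not called, where 58.4% of all genes were called (29% higher and 29.4% lower). Nrxn2 led with a log2 difference of 2.38 ± 0.12, a 5.63-fold ratio of means, and was followed by Nlgn3 (1.74 ± 0.08), Lrrtm3 (1.43 ± 0.11), Nlgn2 (1.34 ± 0.08) and Lrrtm2 (0.98 ± 0.12). Lrrtm1 (0.37 ± 0.14) and Nlgn1 (0.34 ± 0.10) were close to the threshold, and Nrxn3 was lower by −0.69 ± 0.14. The 10 neuronal genes of free RNA were at 9.93% to 47.7% of their excitatory level in OPC-like nuclei, beside 574% for Nrxn2 and 366% for Nlgn3. Lrrtm1 lost its call without WT mouse 2 (adjusted p = 0.0658 in edgeR), without GKO mouse 2 (0.0509) and without GKO mouse 3 (0.0594). With no filter on low counts, and with only WT mice, neither Lrrtm1 nor Nlgn1 was called.

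OPC-like nuclei had more of all 9 members than astrocyte-like nuclei, where 50.9% of all genes were called (25.7% higher and 25.3% lower), with Lrrtm3 (4.26 ± 0.13), Lrrtm4 (3.44 ± 0.17) and Nrxn3 (2.95 ± 0.15) the furthest apart on the log2 scale. The astrocyte-like levels of Lrrtm4 and Nrxn3 were no higher than the free RNA median given above. Against oligodendrocyte-like nuclei, the cells that OPCs become, 8 members were higher in OPC-like nuclei and Lrrtm3 was not called, where 58.3% of all genes were called (30.8% higher and 27.5% lower). Lrrtm4 (4.20 ± 0.18), Nrxn3 (3.62 ± 0.16) and Nlgn3 (3.35 ± 0.11) had the largest of these 8 log2 differences and Lrrtm1 (1.50 ± 0.17) the smallest.

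**Figure D2:**
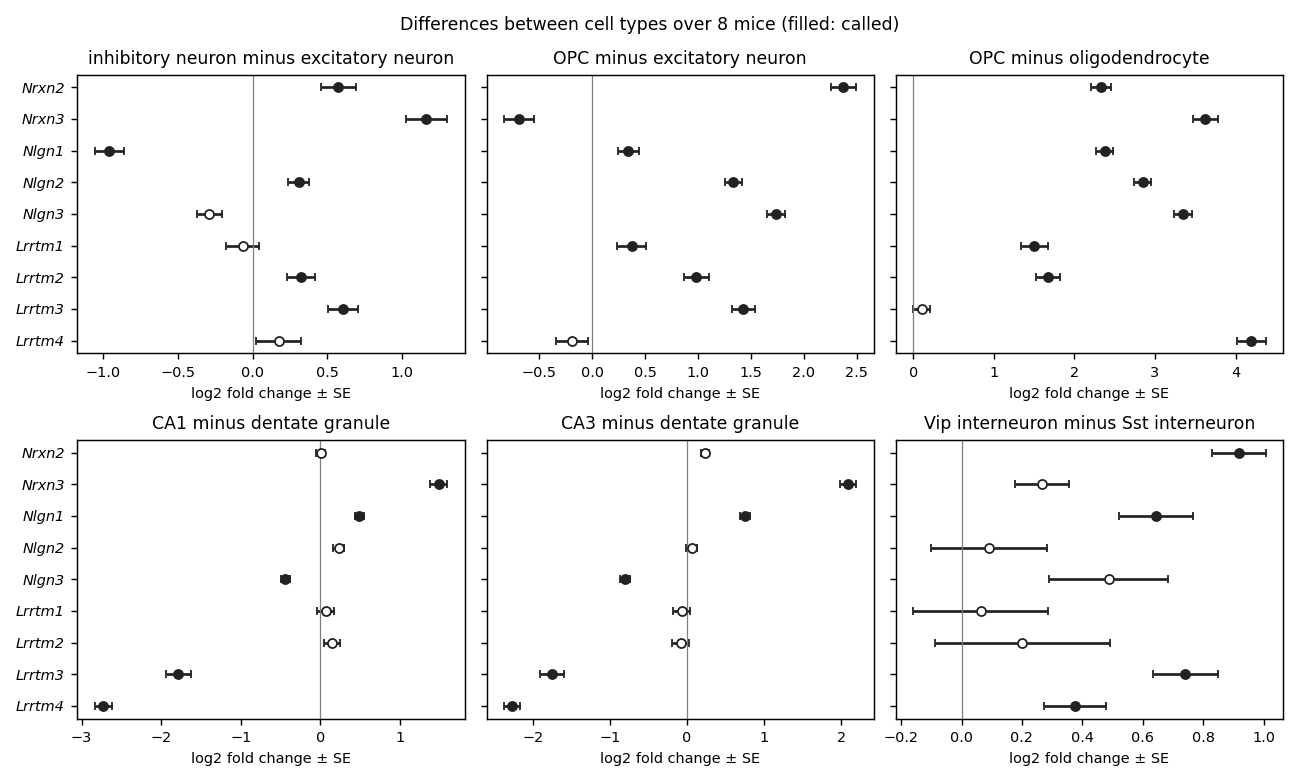
Log2 fold change ± SE of the 9 genes (vertical axis) in 6 comparisons of cell types over 8 mice; filled points were called, and the vertical line marks no difference. Lrrtm4 stood at −2.72 in CA1-like against dentate granule-like nuclei and at 4.20 in OPC-like against oligodendrocyte-like nuclei.

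Among the named excitatory subtypes, Lrrtm4 was highest and Nrxn3 lowest in dentate granule-like nuclei, and both were higher in CA3-like than in CA1-like nuclei. Clusters without a name overlapped the granule-like nuclei. One of 790 nuclei read 4230 to 6178 CPM of Lrrtm4, and one of 644 nuclei 1268 to 2940 CPM of Nrxn3. Lrrtm4 read 3617, 5877 and 6596 CPM in dentate granule-like nuclei (5732 ± 942), 2862 ± 472 in subiculum or cortex-like, 1150 ± 217 in CA3-like and 850 ± 198 in CA1-like nuclei. All 3 steps of that order were called. Nrxn3 read 4665, 5275 and 7059 CPM in CA3-like nuclei (5402 ± 724), 3625 ± 583 in CA1-like, 2156 ± 341 in subiculum or cortex-like and 707, 1247 and 2040 CPM in dentate granule-like nuclei (1349 ± 406), again with all 3 steps called. Of all genes, 40.7% were called between subiculum or cortex-like and CA3-like nuclei and 40% between subiculum or cortex-like and CA1-like nuclei.

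CA1-like nuclei differed from dentate granule-like nuclei in 5 members, 2 higher and 3 lower, where 42.7% of 13717 genes were called (21.5% higher and 21.2% lower). Lrrtm4 was lower by −2.72 ± 0.10 on the log2 scale (edgeR adjusted p = 1.09e-18), with 6.74 times as much in granule-like nuclei and the same direction in 8 of 8 mice. Lrrtm3 was lower by −1.78 ± 0.15, at 23.2 to 88.6 CPM in CA1-like against 156 to 226 CPM in granule-like nuclei, and Nlgn3 by −0.44 ± 0.06. Nrxn3 (1.49 ± 0.11) and Nlgn1 (0.49 ± 0.06) were higher in CA1-like nuclei. Nrxn2, Lrrtm1 and Lrrtm2 had log2 differences of 0.00, 0.07 and 0.14, and Nlgn2 one of 0.23 that did not reach the fold threshold.

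The same 5 members were called between CA3-like and dentate granule-like nuclei, in the same directions, where 48.7% of genes were called (25.5% higher and 23.2% lower). Both comparisons share the granule-like nuclei. Lrrtm4 stood at −2.27 ± 0.10, Lrrtm3 at −1.75 ± 0.16, Nlgn3 at −0.80 ± 0.06, Nlgn1 at 0.75 ± 0.06 and Nrxn3 at 2.08 ± 0.11 on the log2 scale. Between CA1-like and CA3-like nuclei 3 members were called, where 31.5% of genes were (14% higher and 17.4% lower): Nrxn3 (−0.60 ± 0.10) and Lrrtm4 (−0.46 ± 0.10) were lower and Nlgn3 (0.36 ± 0.07) higher in CA1-like nuclei. Lrrtm3 was at 55.2 ± 21.9 CPM in CA1-like and 54.5 ± 11.1 in CA3-like nuclei.

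Lrrtm3 was highest of the excitatory subtypes in the subiculum or cortex-like nuclei, which form 2 clusters. It read 717, 773 and 836 CPM there (771 ± 43.6), 4.09 times the 188 ± 24.1 CPM of granule-like nuclei, with no overlap. Of the 9 members, 3 were higher than in granule-like nuclei, 4 lower and 2 not called, where 50.5% of genes were called (26.1% higher and 24.4% lower). Lrrtm3 (1.99 ± 0.14), Lrrtm2 (0.84 ± 0.11) and Nrxn3 (0.65 ± 0.11) were higher on the log2 scale. Lrrtm4 (−1.04 ± 0.10), Lrrtm1 (−0.79 ± 0.13), Nlgn1 (−0.74 ± 0.06) and Nlgn3 (−0.70 ± 0.07) were lower. Nlgn1, at 1450 ± 97.8 CPM, was lower in these nuclei than in CA3-like (3811 ± 342), CA1-like (3250 ± 285) and granule-like nuclei (2362 ± 339). Nrxn2 and Nlgn2 had no step called in the order of the 4 subtypes. Of the 2 clusters of subiculum or cortex-like nuclei, that of 710 nuclei had 34.1 ± 11.1 CPM of Lrrtm2 and 2658 ± 545 of Nrxn3. That of 419 nuclei had 17.5 ± 5.41 and 1551 ± 199 CPM, beside 14.8 ± 2.99 and 1349 ± 406 in granule-like nuclei. Lrrtm3 was at 788 ± 109 and 775 ± 71.4 CPM, and the clusters were not tested apart.

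Among inhibitory neurons Nrxn3 was highest in Cnr1 and lowest in Lamp5 interneuron-like nuclei, and Nlgn1 was highest in Lamp5. Nrxn3 read 10978, 13454 and 16244 CPM in Cnr1 interneuron-like nuclei (13271 ± 1883), 9402 ± 1224 in Vip, 8093 ± 1309 in Sst, 5219 ± 929 in Pvalb and 1592, 1883 and 2754 CPM in Lamp5 interneuron-like nuclei (1987 ± 404). Vip and Sst interneuron-like nuclei differed by less than the fold threshold (0.27 on the log2 scale, adjusted p = 0.0206 in edgeR), and the other 3 steps were called, where 18.8% of genes were called between Cnr1 and Vip and 30.7% between Pvalb and Lamp5 interneuron-like nuclei. Nlgn1 ran in a different order, from 2480 ± 399 CPM in Lamp5 through 1730 ± 204 in Vip, 1236 ± 166 in Cnr1 and 1160 ± 250 in Sst to 837 ± 347 CPM in Pvalb interneuron-like nuclei.

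Lamp5 interneuron-like nuclei, which include neurogliaform cells, were set against Sst interneuron-like nuclei as the common reference. Nrxn3 was lower by −1.97 ± 0.09 on the log2 scale (edgeR adjusted p = 7.10e-27), and Nlgn1 (1.17 ± 0.12), Lrrtm2 (0.96 ± 0.21) and Lrrtm4 (0.86 ± 0.10) were higher, while 5 members were not called. Of all 7863 genes, 27.5% were called (13% higher and 14.6% lower). Lrrtm4 read 4382 to 6381 CPM in Lamp5 against 2536 to 3634 CPM in Sst interneuron-like nuclei, with no overlap. Lrrtm2 rested on 106 UMIs in Lamp5 and 126 in Sst interneuron-like nuclei.

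Vip interneuron-like nuclei, mostly cells that inhibit other interneurons, had 4 members higher than Sst interneuron-like nuclei, where 25.3% of genes were called (12.9% higher and 12.4% lower). Nrxn2 read 396, 464 and 667 CPM in them against 216, 285 and 333 CPM, a log2 difference of 0.92 ± 0.09 with no overlap. Lrrtm3 (0.74 ± 0.11), Nlgn1 (0.64 ± 0.12) and Lrrtm4 (0.38 ± 0.10) were the other 3. Pvalb interneuron-like nuclei, the fast-spiking cells, had 1 member higher and 3 lower, where 18.2% of genes were called (9.35% higher and 8.84% lower). Lrrtm3 was higher (0.66 ± 0.10), and Nrxn3 (−0.63 ± 0.09), Lrrtm1 (−0.62 ± 0.22) and Nlgn1 (−0.49 ± 0.12) were lower. Cnr1 interneuron-like nuclei had 3 members higher, where 21.9% of genes were called (11.1% higher and 10.8% lower), namely Nrxn3 (0.82 ± 0.09), Lrrtm4 (0.46 ± 0.10) and Lrrtm3 (0.35 ± 0.11), the last higher in 5 of 8 mice. Nlgn2, Nlgn3, Lrrtm1 and Lrrtm2 had no step called in the order of the 5 interneuron subtypes. Lrrtm1 in Pvalb interneuron-like nuclei lost its call without WT mouse 1, GKO mouse 2, the J20;WT mouse or the J20;GKO mouse (adjusted p = 0.0720, 0.147, 0.0970 and 0.135 in edgeR), and Lrrtm3 in Cnr1 interneuron-like nuclei without WT mouse 2 or GKO mouse 1 (0.0768 and 0.124). Lrrtm1 in Pvalb also lost it without called doublets, without the mouse block and in DESeq2 (0.0520, 0.0732 and 0.0582 in that tool), Lrrtm3 in Cnr1 with library-size scaling and with no filter, Lrrtm4 in Vip without the mouse block and with no filter, and Nlgn1 in Pvalb without the mouse block. With only WT mice these 4 and Lrrtm2 in Lamp5 were not called.

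The wider pathway was followed with 71 genes in 6 lists, of which 63 to 69 could be tested in each comparison. In OPC-like against oligodendrocyte-like nuclei 51 of 69 were higher and 10 lower, where 30.8% of all genes were higher and 27.5% lower, with a median log2 difference of 1.32 beside −0.00 for all genes. Nxph1, a secreted neurexin ligand, led at 2026 ± 293 against 16.3 ± 10.3 CPM, followed by Elfn1, a postsynaptic organizer, at 69.0 ± 9.93 against 1.79 ± 1.13 CPM. Ptprd, a receptor phosphatase, went the other way at 838 ± 216 against 4858 ± 247 CPM, as did the scaffold Magi2 at 1965 ± 298 against 5732 ± 489 CPM. Against astrocyte-like nuclei 44 of 69 were higher and 11 lower in OPC-like nuclei (median 0.68 beside −0.01 for all genes, of which 25.7% were higher and 25.3% lower), and Nxph1 and Elfn1 again led. Against excitatory neuron-like nuclei 20 were higher and 33 lower (median −0.33 beside −0.00, with 29% of all genes higher and 29.4% lower), with Tenm4 and Adgrl2 lowest at log2 differences of −4.16 and −4.15.

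Between the neuron classes 17 of 69 pathway genes were higher in inhibitory nuclei and 28 lower, with a median of −0.19 beside 0.02 for all genes. Of all genes 23.4% were higher and 21.6% lower, so the share of pathway genes that were higher was close to that of all genes. Nxph1 was at 1461 ± 250 against 20.2 ± 6.18 CPM and Elfn1 at 73.0 ± 7.76 against 6.56 ± 1.20 CPM. C1ql3 and C1ql2, secreted ligands that bind neurexins, were lower, at 53.5 ± 14.2 against 383 ± 66.0 CPM and 9.45 ± 4.96 against 60.5 ± 22.3 CPM.

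By list, OPC-like exceeded oligodendrocyte-like nuclei in 18 of 20 other synaptic organizers (1 lower, median log2 difference 1.53), 11 of 14 receptor phosphatases of the LAR type and their ligands (3 lower, 1.91) and 9 of 12 further neurexin ligands (1 lower, 1.49), beside 30.8% of all genes higher and 27.5% lower. The neuroligin regulators and partners had 6 of 11 higher (2 lower, 0.53), the presynaptic partners of neurexins 5 of 9 (3 lower, 0.53) and the neurexin splicing factors 2 of 3 (0 lower, 1.26), lists too short for their shares to be read closely. Between inhibitory and excitatory neuron-like nuclei (23.4% of all genes higher and 21.6% lower) the 6 lists in that order had 6, 2, 5, 1, 3 and 0 genes higher and 6, 6, 6, 4, 4 and 2 lower, with medians of −0.18, −0.19, −0.22, −0.09, 0.00 and −1.36. In CA1-like against granule-like nuclei (21.5% higher and 21.2% lower) they had 10, 3, 2, 4, 3 and 2 genes higher and 4, 4, 3, 2, 1 and 0 lower, with medians of 0.52, −0.14, −0.05, 0.14, 0.22 and 1.29. Of the other synaptic organizers, 2 of 19 were higher and 13 lower in Lamp5 than in Sst interneuron-like nuclei (median −0.45), beside 13% and 14.6% of all genes.

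Both C1ql genes were high in the granule-like nuclei. C1ql2 was at 178 ± 60.9 CPM in granule-like against 10.2 ± 6.16 in CA1-like, 9.48 ± 4.19 in CA3-like and 9.02 ± 7.64 in subiculum or cortex-like nuclei, and C1ql3 at 879 ± 179 CPM against 214 ± 56.8, 81.2 ± 20.6 and 60.5 ± 19.2. Khdrbs3, which regulates neurexin splicing, was at 1002 ± 144 CPM in CA1-like and 1240 ± 99.9 in CA3-like against 36.3 ± 8.03 in granule-like nuclei. Of 68 pathway genes, 24 were higher and 14 lower in CA1-like than in granule-like nuclei (median 0.10 beside −0.01 for all genes, of which 21.5% were higher and 21.2% lower), and 25 higher and 18 lower in CA3-like nuclei (0.07 beside −0.01, with 25.5% and 23.2% of all genes). The share of pathway genes lower in CA1-like nuclei was close to that of all genes. Adgrl2, a latrophilin, led the former at 116 ± 7.70 against 2.43 ± 0.57 CPM, and Tenm4, a teneurin, followed Khdrbs3 in the latter at 864 ± 108 against 163 ± 40.0 CPM. In subiculum or cortex-like nuclei 28 were higher and 19 lower (0.14 beside −0.01, with 26.1% and 24.4% of all genes), led by the neurexin ligands Cbln2 at 42.0 ± 18.8 against 0.49 ± 0.27 CPM and Nxph3 at 75.2 ± 27.4 against 0.99 ± 0.40 CPM. Between CA1-like and CA3-like nuclei 22 were higher and 11 lower in CA1-like nuclei (0.16 beside 0.00, with 14% and 17.4% of all genes), with Adgrl2 and Tenm3 highest and Mpp3 and Epb41l2 lowest.

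Against Sst interneuron-like nuclei, and of 63 pathway genes each, 14 were higher and 25 lower in Lamp5 (median −0.04 beside −0.02 for all genes), 21 and 10 in Vip (0.19 beside 0.00), 12 and 10 in Pvalb (−0.05 beside 0.01) and 16 and 14 in Cnr1 interneuron-like nuclei (0.00 beside 0.01). Of all genes, 13% were higher and 14.6% lower in Lamp5, 12.9% and 12.4% in Vip, 9.35% and 8.84% in Pvalb, and 11.1% and 10.8% in Cnr1 interneuron-like nuclei. Il1rap, a ligand of receptor phosphatases, was at 279 ± 77.0 CPM in Lamp5, 93.4 ± 38.7 in Vip and 87.3 ± 23.4 in Pvalb against 24.4 ± 7.31 CPM in Sst interneuron-like nuclei. Cbln2 was at 135 ± 46.2 CPM in Vip and 18.8 ± 11.9 in Cnr1 against 2.65 ± 1.94 CPM in Sst interneuron-like nuclei. Elfn1 was at 1.64 ± 3.35 CPM in Lamp5 and 20.5 ± 7.82 in Pvalb against 144 ± 15.7 CPM in Sst interneuron-like nuclei. Nxph1 was at 27.2 ± 14.0 CPM in Vip and 126 ± 71.4 in Cnr1 against 2186 ± 364 CPM, and Cbln4 was at 0.371 ± 1.05 CPM in Lamp5, 2.14 ± 1.99 in Pvalb and 0.929 ± 1.96 in Cnr1 against 38.7 ± 17.8 CPM in Sst interneuron-like nuclei. Tenm1 and Ntng1 were the remaining genes named as highest in Lamp5 (1705 ± 373 against 357 ± 54.6 CPM) and in Cnr1 interneuron-like nuclei (1151 ± 268 against 90.4 ± 86.3 CPM), and Slitrk5 and Adgrl2 the remaining ones in Pvalb (53.9 ± 23.1 against 23.9 ± 6.31 CPM) and, as lower, in Vip interneuron-like nuclei (14.0 ± 18.7 against 124 ± 26.5 CPM).

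Genes whose levels ran most like those of a member over 14 types were ranked among 11667 genes by Pearson's r of log levels; types share libraries and, in part, free RNA, so r is a description. The gene most like Lrrtm3 was its host Ctnna3, on the opposite strand (r = 0.97), and the gene most like Nlgn1 was Acp1 (r = 0.99). Ctnna3 gave 2.61 ± 0.15 UMIs per Lrrtm3 UMI in oligodendrocyte-like nuclei, 1.29 ± 0.25 in OPC-like, 1.35 ± 0.25 in granule-like and 1.00 ± 0.18 in subiculum or cortex-like nuclei. Acp1 gave between 0.09 and 0.16 UMIs per Nlgn1 UMI in the 14 types. Inside Nlgn1, on the opposite strand, lies Gm6197, a processed pseudogene of Acp1 (chromosome 3, 25731243 to 25731696, plus strand) that matched Acp1 with 92.2% identity over 473 bases, and how reads were divided between them was not tested. Lrrtm1 ran less closely with its host Ctnna2 (r = 0.91, rank 17), and Lrrtm2 did not run with Ctnna1 (r = −0.25).

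After these, Nlgn1 was most like Dmd and Cadm2 (r = 0.89 and 0.87) and Lrrtm3 most like Gm13052 and Atg13 (0.88 and 0.87). Lrrtm4 was most like Gnal, Rgs17 and Nmnat2 (0.96, 0.96 and 0.95), Lrrtm1 like Cpt1c, Macrod2 and Slc24a5 (0.96, 0.95 and 0.94) and Lrrtm2 like AC101921.1, Hacd1 and Tenm1 (0.90, 0.90 and 0.89). Nrxn3 was most like Zfp618, Slc44a5 and Ptpn5 (0.95, 0.94 and 0.94), and Nrxn2 like Clcn3, Rev3l and Agrn (each 0.92). Nlgn2 was most like Il17d, H2afy2 and Tmem266 (0.95, 0.93 and 0.91) and Nlgn3 like Arxes1, Mir9-3hg and Slc22a17 (0.92, 0.91 and 0.90). Among the members themselves r over 14 types ran from 0.31 for Nlgn1 with Lrrtm3 to 0.85 for Nrxn2 with Nlgn3.

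**Figure D3:**
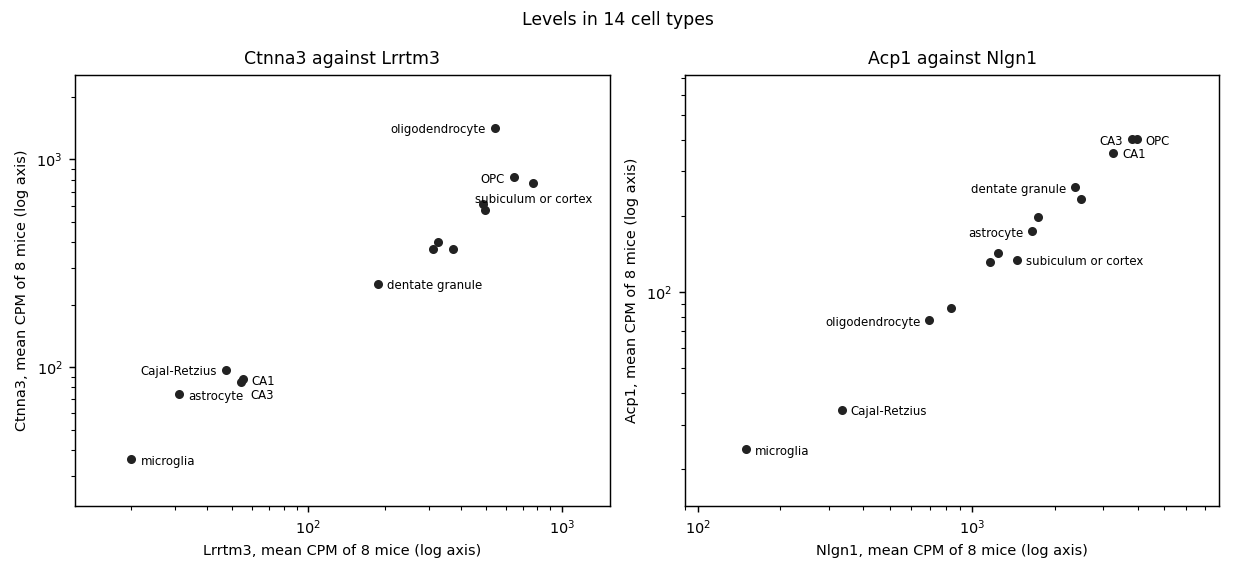
Mean CPM over 8 mice in 14 cell types, both axes log: Ctnna3 against Lrrtm3 (left) and Acp1 against Nlgn1 (right), 1 point per type. Oligodendrocyte-like nuclei lay above the other types with high Lrrtm3, at 2.61 Ctnna3 UMIs per Lrrtm3 UMI.

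The question of what loss of Gsap changes was tested on 3 WT and 3 GKO mice in 16 classes and subtypes. None of the 9 genes was called in any of the 127 tests that had enough counts, and 0 of all 159198 gene and type tests were called (0%), with 1.79% of them at an unadjusted p under 0.05; 17 pairs of a member and a type were too low to test. Log2 differences between GKO and WT ran from −1.04 to 0.39 with a median of −0.02, and 118 of 127 lay within 0.3 of 0. DESeq2 called 1 gene over all types and no member. Leaving out 1 mouse gave at most 3 calls over all genes (without GKO mouse 3, and without WT mouse 1) and 0 among the members. With the file date as a term 16 calls were made over all genes and with no filter on low counts 47, with 0 members among them. Unadjusted edgeR p was under 0.05 in 7515 of 167600 tests with the date term, against 2849 of 159198 without it. The fits without the term thus gave fewer small p-values. With the replicate number as a block 23 calls were made over all genes, 1 of them a member, Lrrtm4 in Cajal-Retzius-like nuclei.

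In excitatory neuron-like nuclei Lrrtm4 was at 3150 ± 211 CPM in WT and 3147 ± 309 in GKO mice, a log2 difference of 0.03 ± 0.14 (adjusted p = 1.00 in edgeR). Nrxn3 was at 2908 ± 152 and 3147 ± 615 CPM in the same nuclei, and Nlgn1 at 2867 ± 291 and 2951 ± 213 CPM. In OPC-like nuclei Nrxn2 was at 932 ± 89.7 CPM in WT and 1070 ± 73.1 in GKO mice (0.20 ± 0.15). WT and GKO mice overlapped in each of these. In 7 of the 127 tests WT and GKO mice did not overlap, a share no higher than the 6.36% of all 159198 tests without overlap.

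None of those 7 passed the test, and all rest on the same 6 mice. How tests without overlap split by direction over all genes was not counted, so their directions are listed only as values. Nlgn3 was lower in GKO mice in excitatory (49.0 ± 4.73 against 42.4 ± 1.59 CPM) and in inhibitory neuron-like nuclei (42.6 ± 4.59 against 34.8 ± 2.81 CPM), at unadjusted edgeR p of 0.0799 and 0.138. Lrrtm2 was at 11.2 ± 3.41 CPM in WT and 7.07 ± 0.49 in GKO mice in oligodendrocyte-like nuclei, the 1 member test with an unadjusted p under 0.05 (0.0479 in edgeR, adjusted 1.00). The other 4 were Lrrtm2 in dentate granule-like, Lrrtm3 in Pvalb, Lrrtm4 in Sst and Nrxn2 in Vip interneuron-like nuclei, with log2 differences of −0.23, −0.23, 0.24 and −0.38. The genotype effect was also compared between excitatory and inhibitory neuron-like nuclei, where no member's effect was called as different (adjusted p = 1.00 in edgeR for each) and 0 of 16636 genes were called, with 456 at an unadjusted p under 0.05.

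The 71 pathway genes gave 938 tests between GKO and WT mice, of which 0 were called and 21 (2.24%) had an unadjusted p under 0.05.

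**Figure D4:**
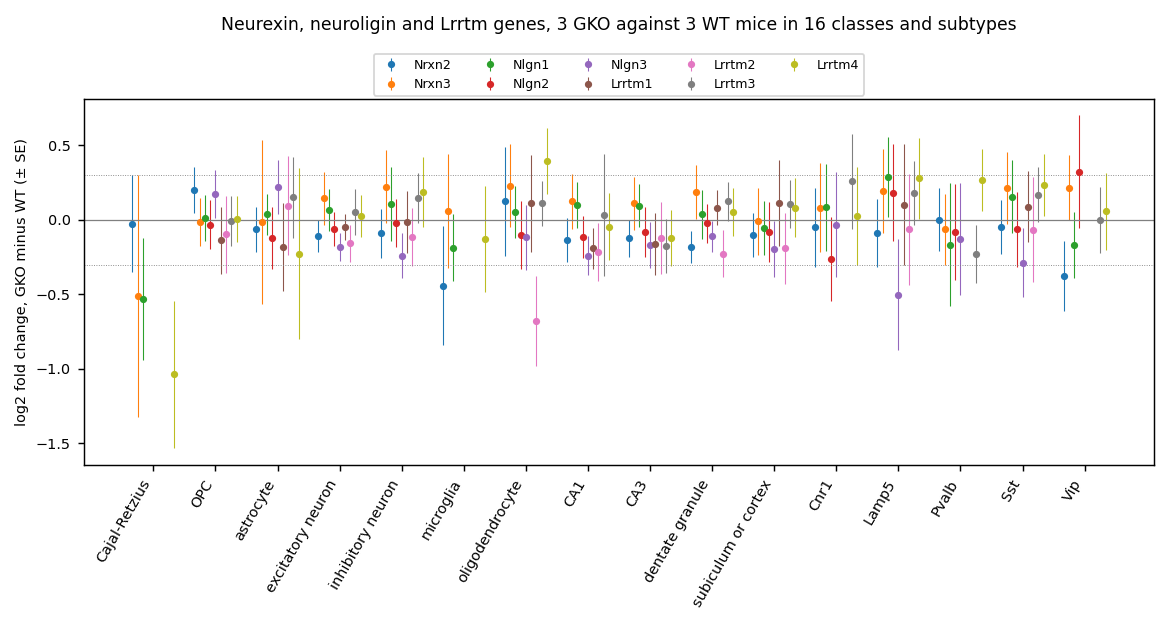
Log2 fold change of GKO minus WT (± SE) for each tested member (colour) in 16 cell types, over 3 mice per genotype; dotted lines mark 0.3 either way. Of 127 points 118 lie between the dotted lines, and the lowest is Lrrtm4 in Cajal-Retzius-like nuclei at −1.04.

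Lrrtm4 in Cajal-Retzius-like nuclei, reelin-secreting cells, was the member value furthest from 0 between the genotypes. The 3 WT mice read 1692, 1215 and 470 CPM, the 3 GKO mice 814, 480 and 347 CPM, the J20;WT mouse 1262 and the J20;GKO mouse 191 CPM. WT and GKO mice overlapped, and the log2 difference was −1.04 ± 0.49 (edgeR unadjusted p = 0.0754, adjusted p = 0.994). With the date in the file names as a term it was −1.04 with an adjusted p of 0.624 in edgeR. Leaving out 1 mouse moved it from −0.62 (without WT mouse 1) to −1.44 (without GKO mouse 1), and it was called in none of these. With the replicate number as a block it was called, at −1.002 ± 0.209 (adjusted p = 0.0155 in edgeR). Over all alternatives the adjusted p ran from that value to 1.00. Only 14 to 41 nuclei per mouse carried this type. Markers of granule cells were read in the same nuclei. Their summed level without Pdzd2 was taken as a share of that in granule-like nuclei. It was 13.9%, 19.9% and 2.04% in WT mice 1, 2 and 3, and 14.9%, 4.82% and 0.844% in GKO mice 1, 2 and 3. Across WT mice this share was highest in mouse 2 and Lrrtm4 in mouse 1, while across GKO mice both fell from mouse 1 to mouse 3. The share was 14.7% in the J20;WT and 2.58% in the J20;GKO mouse. With Pdzd2 the shares were 73.6%, 79.8% and 70.5% in the WT mice, 69.4%, 46.3% and 75.3% in the GKO mice, 60.9% in the J20;WT and 81.0% in the J20;GKO mouse, and did not run in the order of Lrrtm4. Prox1, on the marker lists of both granule cells and Vip interneurons, had a mean of 23.6 CPM in these nuclei against 242 CPM in granule-like nuclei. It was at 0 in 5 of 8 mice. Of the 12 granule markers only Pdzd2 was above its granule level (1786 against 378 CPM) and was left out for that after its values were seen. The part of granule cell RNA in the Lrrtm4 difference was not tested.

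**Figure D5:**
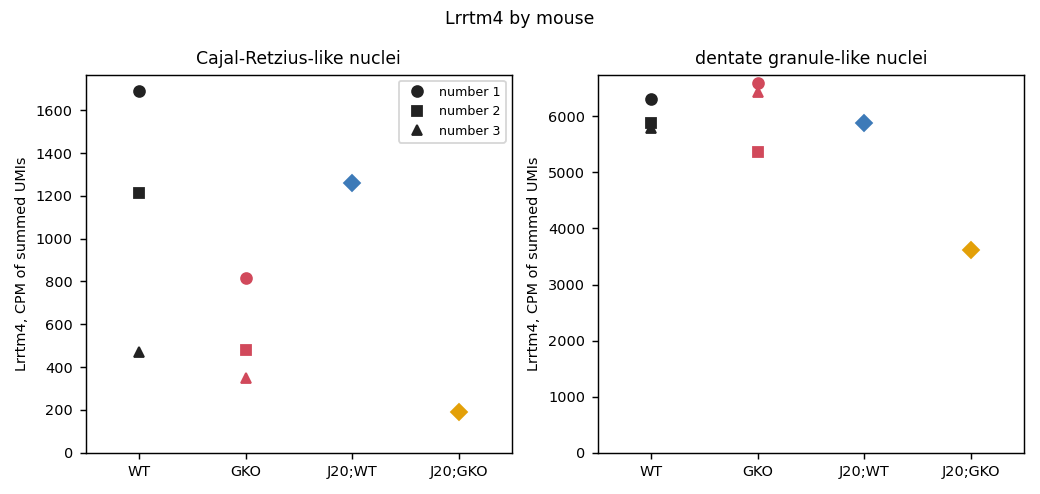
Lrrtm4 in CPM for each mouse by group, in Cajal-Retzius-like nuclei (left) and dentate granule-like nuclei (right); symbols mark the mouse's replicate number. In Cajal-Retzius-like nuclei WT mice span 470 to 1692 CPM and GKO mice 347 to 814 CPM.

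The J20;WT and J20;GKO mice were 1 each, and their libraries carry different dates in their file names, so genotype, mouse and date cannot be told apart and no test was made. Intervals given for them cover counting error only. Lrrtm4 was lower in the J20;GKO mouse in excitatory neuron-like nuclei, at 2054 CPM (95% exact Poisson interval 2031 to 2078) against 3372 CPM (3343 to 3402), a log2 ratio of −0.72. The 6 mice without the transgene spanned 2880 to 3485 CPM, so the J20;GKO value lay outside them and the J20;WT value inside. Within dentate granule-like nuclei the ratio was −0.70 (3617 against 5875 CPM). As mean UMIs per nucleus in place of CPM, the log2 ratios of Lrrtm4 were −0.20 in excitatory neuron-like and −0.19 in granule-like nuclei. In CA1-like, CA3-like and subiculum or cortex-like nuclei the Lrrtm4 ratios were −0.40, −0.36 and −0.28 as CPM and 0.02, 0.73 and 0.01 per nucleus. Ratios per nucleus also hold the difference in depth between the mice, which CPM scales out. Median depth in the J20;WT and J20;GKO mouse was 7601 and 11001 UMIs in excitatory neuron-like nuclei. In CA3-like nuclei it was 10490 and 21813 UMIs.

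Nrxn3 went the other way in dentate granule-like nuclei, at 2040 CPM in the J20;GKO mouse (1994 to 2088) and 707 CPM in the J20;WT mouse (684 to 731), a log2 ratio of 1.53 (2.04 per nucleus). Both values lay outside the 1180 to 1792 CPM of the 6 mice without the transgene, on opposite sides. CA1-like, CA3-like and subiculum or cortex-like nuclei of the same 2 mice had Nrxn3 ratios of −0.20, −0.00 and 0.41 as CPM and 0.22, 1.08 and 0.70 per nucleus. Over the 9 genes in excitatory and inhibitory neuron-like nuclei, ratios other than that of Lrrtm4 in excitatory nuclei ran from −0.36 for Nlgn3 to 0.29 for Lrrtm2, both in inhibitory nuclei. Per nucleus the same ratios ran from 0.11 for Nlgn3 to 0.76 for Lrrtm2, again both in inhibitory nuclei. The 8 of them below 0 as CPM were thus above 0 per nucleus, where the difference in depth enters. Median depth in inhibitory neuron-like nuclei was 9417 UMIs in the J20;WT and 13178 in the J20;GKO mouse.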

How the data were processed

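The authors aligned reads of 3′ single-nucleus libraries to mm10 with Cell Ranger (version 3.0.2 in the matrix headers) and deposited raw UMI counts per gene and nucleus, 1 matrix per mouse. The annotation used and whether intronic or stranded reads were counted are not given in the sources used here. Nuclei with over 5% mitochondrial UMIs, under 200 genes or over 7500 genes were removed, as in the study's methods.

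Libraries had medians of 2246 to 2954 genes per nucleus and shared 2 to 27 barcodes per pair. Nuclei were integrated and clustered with Seurat 5.3.0 and sctransform 0.4.2 on 30 principal components. Of 3000 features selected, 2967, 2962 and 2959 were used for all, excitatory and inhibitory nuclei after the 9 genes and the pathway lists were removed. Clusters were named from fixed marker lists with at least 3 raised markers. Scrublet called 4.06% to 6.29% of nuclei as doublets in 5 libraries but only 1, 2 and 2 nuclei in WT mouse 1, GKO mouse 1 and the J20;WT mouse, where it did not work. Called nuclei were kept in the results given and were left out as an alternative, as were the highest 6% of doublet scores in each library, an alternative chosen after seeing the data. Clusters with over 25% of such top scores stayed unnamed.

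UMI counts were summed per mouse and type (at least 10 nuclei per mouse) and tested with edgeR 4.0.16 (TMM, filterByExpr, robust quasi-likelihood test, two-sided), with Benjamini-Hochberg adjustment over all genes of a comparison. Calls needed both an adjusted p below 0.05 and a log2 difference beyond 0.3 either way. Types were compared over 8 mice with the mouse as a block, and GKO with WT over 3 mice each. In simulated GKO and WT counts of 4 types, with 200 genes given a log2 change of 1, 78.5% to 88.5% of these were found, beside 12 to 19 false calls per type. Smaller changes, date effects and other types, Cajal-Retzius-like nuclei among them, were not simulated for GKO against WT. Alternatives were library-size scaling, DESeq2 1.42.0, no low-count filter, nuclei with at least 1000 genes, other sets of mice and other covariates. Replicate numbers come from the sample titles. P-values of GKO against WT rest on the spread between mice within a genotype, and this spread spans different dates in the file names. Those between types rest on how the type differences vary from mouse to mouse, because the mouse is a block. With a count of 0, a floor of 3 counts applies.

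All 9 members were described in every comparison. Of the pathway genes, those called with the 2 largest and the 2 smallest log2 differences were named in each comparison of types. For each member, the 3 genes of highest Pearson's r over the types were named, among genes with at least 20 CPM in 1 type. Host genes were named for their position and after their values were seen. The members and lists were chosen with earlier results of these data known.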

Additional observations from a re-analysis of the deposited data

How the results depend on the processing

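Over 12 comparisons of types the 66 called member differences were recomputed under 1122 alternatives: 1084 kept direction and call, 38 kept direction without the call and 0 reversed. Members called numbered 3 between inhibitory and excitatory neuron-like nuclei with only WT mice (6 with 8 mice), and 2 between Pvalb and Sst interneuron-like nuclei both with only WT mice and without the mouse block (4 in the results given). Fewer mice entered the fits with only WT mice. Leaving out 1 mouse gave 5 to 7 members between inhibitory and excitatory, 7 to 8 in OPC-like against excitatory, 8 to 8 against oligodendrocyte-like and 9 to 9 against astrocyte-like nuclei. It gave 5 to 5 for CA1-like and for CA3-like against granule-like nuclei, 7 to 8 for subiculum or cortex-like nuclei and 3 to 4 between CA1-like and CA3-like nuclei. Against Sst interneuron-like nuclei it gave 4 to 4 for Lamp5, 4 to 5 for Vip, 3 to 5 for Pvalb and 2 to 4 for Cnr1. Between GKO and WT it gave 0 to 0 in each of 16 types.

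The replicate number as a block gave 1 member call between GKO and WT, Lrrtm4 in Cajal-Retzius-like nuclei (log2 difference −1.002 ± 0.209, adjusted p = 0.0155 in edgeR), against 0 without it, and 23 calls over all genes against 0. Deviations of WT and GKO mice of the same number correlated at 0.07 to 0.61 in 7 classes. In OPC-like, oligodendrocyte-like and Cajal-Retzius-like nuclei 1 pair each was under 0.1 (0.39, 0.07 and 0.31 for mice 1, 2 and 3 of the Cajal-Retzius-like nuclei), so the mice were not treated as paired, and not every mouse correlated best with its own number. Mouse 1 of both groups shares a date in the file names, and mice 2 and 3 share another. In excitatory neuron-like nuclei WT mouse 1 correlated at 0.50 with GKO mouse 1 and at −0.30 and −0.31 with GKO mice 2 and 3. The date was not a term in the results given.

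As mean UMIs per nucleus, the log2 ratios of the J20;GKO to the J20;WT mouse in excitatory neuron-like nuclei were 0.61 for Lrrtm1, 0.50 for Lrrtm2, 0.64 for Lrrtm3, −0.20 for Lrrtm4, 0.29 for Nlgn1, 0.65 for Nlgn2, 0.34 for Nlgn3, 0.76 for Nrxn2 and 0.64 for Nrxn3. In inhibitory neuron-like nuclei they were 0.49 for Lrrtm1, 0.76 for Lrrtm2, 0.27 for Lrrtm3, 0.21 for Lrrtm4, 0.28 for Nlgn1, 0.54 for Nlgn2, 0.11 for Nlgn3, 0.60 for Nrxn2 and 0.42 for Nrxn3, and in granule-like nuclei −0.19 for Lrrtm4 and 2.04 for Nrxn3. Lrrtm2, Nlgn1 and Nlgn3 in excitatory and Lrrtm3, Lrrtm4, Nlgn1, Nlgn3 and Nrxn3 in inhibitory nuclei had the opposite sign as CPM. Depth per nucleus was higher in the J20;GKO mouse in both classes, and this enters only the ratios per nucleus. The share of nuclei with a UMI was 100% without thinning for Lrrtm4 in granule-like nuclei, 100% at 2000 UMIs and without thinning for Nrxn3 in Cnr1 interneuron-like nuclei, 99.9% at both for Nlgn1 in OPC-like nuclei, and 53.7% and 55.0% for Lrrtm3 in oligodendrocyte-like nuclei. Shares are higher at greater depth by construction.

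The median log2 difference of all genes in OPC-like against excitatory neuron-like nuclei was −0.00 in the results given and 0.11 with library-size scaling. It was 0.25 in DESeq2, which was run without the low-count filter and so over a larger set of genes. Of the genes called between Cnr1 and Sst interneuron-like nuclei, 50.6% were higher in Cnr1, and 34.7% with library-size scaling, under which Lrrtm3 lost its call there (adjusted p = 0.0826 in edgeR). Depth limits the low members most in the small subtypes, where Lrrtm2 rested on 106 UMIs in Lamp5 interneuron-like nuclei.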

Other observations

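Among the excitatory nuclei that kept no name, the members' levels in 4 clusters are given here with genes that lead each. A cluster of 790 nuclei led by Nts and Fn1 had 5135 ± 736 CPM of Lrrtm4, 429 ± 42.3 CPM of Lrrtm3 and 4230 ± 464 CPM of Nrxn3 (SD, n = 8 mice). A cluster of 644 nuclei led by Camk2d and Fhod3 had 2716 ± 403 CPM of Lrrtm4, and one of 958 nuclei led by Pdzrn3 and Gpc6 had 789 ± 323 CPM. In each of these clusters the subiculum or cortex markers, which include Nts and Fn1, had the highest mean score. The share of raised markers was highest for CA1, so no name was given. The levels of subiculum or cortex-like nuclei given above leave these clusters out. A cluster of 273 nuclei led by Col6a1 had 5540 ± 832 CPM of Nrxn3 and 42.5 ± 6.91 CPM of Lrrtm3. These levels were read within clusters and were not tested.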
